A study of Mus musculus with 12 samples.

Results

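Dcx and Nde1, a pair of genes whose proteins act on microtubules and on the dynein motor in dividing progenitors and migrating newborn neurons, were chosen by their symbols, and are 2 of the 584 genes in the deposited table. The tissue was the hippocampus of male C57BL/6 mice aged 8 weeks. The mice were weaned at 3 weeks and then lived for 5 weeks either in a standard cage (SH) or in an enriched environment (EE), a cage furnished with changing objects for exploration. Total RNA of 3 SH and 3 EE samples was sequenced, and the study calls them biological repeats. The labels name no transgene and call the SH samples untreated, and the study put more animals in an EE cage than in an SH cage, so company and objects cannot be told apart. Every sample was a mixture of all cells of the hippocampus, so a change in the number of cells that express a gene and a change in RNA per cell cannot be told apart. The 6 m6A immunoprecipitation libraries of the study were not analysed here.

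Dcx encodes doublecortin, a microtubule-associated protein that binds and stabilises microtubules. In the adult hippocampus it is best known as a marker of neuroblasts and immature granule neurons in the dentate gyrus, and mutations of the human gene disturb neuronal migration in the cortex. Nde1 encodes a coiled-coil scaffold that binds Lis1 (encoded by Pafah1b1) and cytoplasmic dynein, the motor that moves cargo, nuclei and spindles towards the minus ends of microtubules. Nde1 is needed for divisions of neural progenitors during development, and its loss in humans causes microlissencephaly.

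Dcx lies on chromosome X (143855842 to 143933396, minus strand, GRCm38, the build also called mm10) and has 7 merged exon blocks with a joined length of 9332 bases in RefSeq. Nde1 lies on chromosome 16 (14163275 to 14192928, plus strand) and has 10 exon blocks with a joined length of 2531 bases. No other RefSeq gene overlaps either of them. In GENCODE M21 the gene Marf1, on the opposite strand, shares 77 bases with the start of Nde1, and whether the counting used strand is not given in the sources used here. The 250 bases before an annotated start of each gene are shown because these windows differ in the density of CG dinucleotides, which are printed in capitals. Both are given 5′ to 3′ on the gene's own strand, from RefSeq on GRCm38.p6, at chrX:143933220-143933469 (minus strand) for Dcx and chr16:14163025-14163274 (plus strand) for Nde1. The Nde1 window ends at the start of the gene, while the Dcx window lies before an inner start and holds the outermost annotated start of Dcx, at 143933396, within it.
Dcx: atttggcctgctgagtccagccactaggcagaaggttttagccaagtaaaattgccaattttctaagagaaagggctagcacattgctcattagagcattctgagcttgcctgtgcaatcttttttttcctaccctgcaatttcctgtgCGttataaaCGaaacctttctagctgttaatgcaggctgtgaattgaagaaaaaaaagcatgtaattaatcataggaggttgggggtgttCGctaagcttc
Nde1: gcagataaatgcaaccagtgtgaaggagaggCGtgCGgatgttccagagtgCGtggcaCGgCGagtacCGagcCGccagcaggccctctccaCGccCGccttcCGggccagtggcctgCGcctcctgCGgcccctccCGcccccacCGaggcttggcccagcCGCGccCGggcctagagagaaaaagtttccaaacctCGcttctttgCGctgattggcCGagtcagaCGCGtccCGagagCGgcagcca
The Dcx window holds 3 CG dinucleotides at a GC content of 41.6%, and 37.8% of 32851 such windows hold 3 or fewer. The Nde1 window holds 24 at a GC content of 67.2%, and 12% of the windows hold 24 or more, against a median of 6. Searched on both strands, the letters TATAAA occur 1 time in the Dcx window, 0 times in the Nde1 window and in 12.4% of all windows. The letters CCAAT occur 1 time in each, and in 33.8% of all windows. A further window in the RefSeq promoter table, before another inner start of Dcx (chrX:143933125-143933374, minus strand), which overlaps the one printed, holds 3 CG dinucleotides at a GC content of 44.8%, with TATAAA 1 time and CCAAT 0 times. These matches describe the letters of the windows, and no binding or methylation was measured here.

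The 6 RNA-seq libraries had between 31969156 and 53943195 reads, of which the 584 genes held between 8.12% and 8.85%. The authors kept in the table only genes with their own p-value under 0.01 between SH and EE. Dcx and Nde1 were therefore in it because they had been called. Their directions, sizes, intervals and p-values, adjusted or not, describe the difference against the replicate spread and are not independent evidence for it. Selection at such a threshold favours larger differences and smaller replicate spread. The same limits hold for every other gene of the table.

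Dcx was higher and Nde1 lower in EE than in SH, each by a small amount that left no overlap between the groups. Dcx rose by 16.2% and Nde1 fell by 12.8% in edgeR's fit. Per length, Nde1 was the more abundant transcript in every library. Its FPKM (fragments per kilobase of gene, scaled to library depth) was on average 6.45 times that of Dcx in SH and 4.85 times in EE. Each gene was counted with at least 674 reads in every library.

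**Figure D1:**
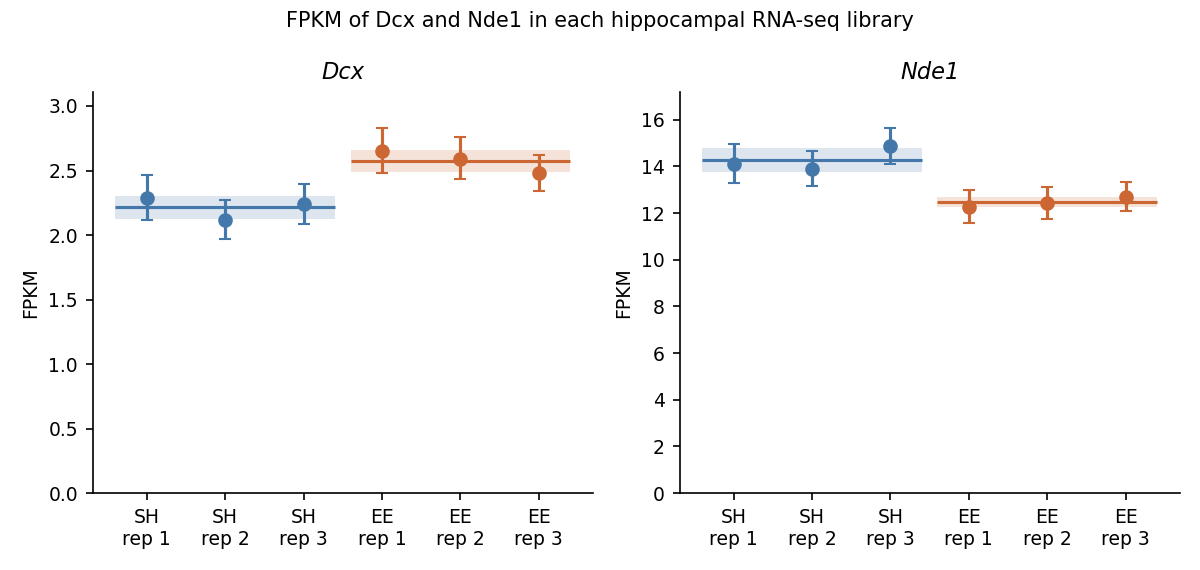
FPKM of Dcx and Nde1 in each of the 6 libraries. Points are libraries with exact Poisson 95% intervals of counting error, lines and bands are the mean and SD of the 3 libraries of a group, and all EE points lie above all SH points for Dcx and below them for Nde1.

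The counts of Dcx were 674, 752 and 831 in SH replicates 1, 2 and 3 and 915, 1011 and 1231 in EE replicates 1, 2 and 3. Its FPKM was 2.29, 2.12 and 2.24 in SH and 2.65, 2.59 and 2.48 in EE. The lowest EE library, replicate 3, lay above the highest SH library, replicate 1, by 0.189 FPKM, or 8.24% of the SH value. EE replicate 3 was the deepest library, so its count of Dcx was the highest of all while its FPKM was the lowest of the EE group. The mean over the SH libraries was 2.21 ± 0.09 FPKM (SD, n = 3), and over the EE libraries it reached 2.57 ± 0.09 FPKM (SD, n = 3). The log2 fold change was 0.22 with a standard error of 0.07 and a 95% interval of 0.07 to 0.37 (adjusted p = 0.016 from edgeR, by the Benjamini-Hochberg method over all genes of the table). Those genes had all been called beforehand, so the adjusted p-values given here cannot be read as a rate of false calls. The unadjusted p was 0.0093, under the threshold of 0.01 that the study's methods name.

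Dcx was a low transcript of this table, with a mean FPKM of 2.39 that put it at rank 512 of 584, counted from the highest. Because its exons are long, this level still gave 2257 reads in the SH libraries together and 3157 in the EE libraries. The coefficient of variation of Dcx among replicates was 4.01% in SH and 3.38% in EE, close to the 3.66% and 3.10% that counting alone gives. The exact Poisson 95% intervals of its FPKM, which cover counting error only, were 2.12 to 2.47 for SH replicate 1 and 2.34 to 2.62 for EE replicate 3, and these nearest libraries of the groups overlap in that sense. By size, the change of Dcx was in the middle of the genes that were higher in EE, at rank 121 of 246 from the largest, and the median of those genes was 0.21 on the log2 scale.

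The counts of Nde1 were 1132, 1345 and 1503 in SH replicates 1, 2 and 3 and 1154, 1321 and 1719 in EE replicates 1, 2 and 3. Its FPKM was 14.1, 13.9 and 14.9 in SH and 12.3, 12.4 and 12.7 in EE. The highest EE library, replicate 3, lay below the lowest SH library, replicate 2, by 1.19 FPKM, and the raw counts of the groups overlapped because the EE libraries were deeper on average. The SH libraries averaged 14.3 ± 0.51 FPKM (SD, n = 3) and the EE libraries 12.5 ± 0.22 FPKM (SD, n = 3). The log2 fold change was -0.20 with a standard error of 0.06 and a 95% interval of -0.33 to -0.06 (adjusted p = 0.016, edgeR). The unadjusted p was 0.0079.

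Nde1 was near the middle of the table by level, with a mean FPKM of 13.4 and rank 290 of 584. Its coefficient of variation among replicates was 3.54% in SH and 1.78% in EE, against 2.76% and 2.70% from counting alone, so the spread of its EE libraries was below the counting error and that of its SH libraries above it. The Poisson 95% intervals of FPKM were 13.2 to 14.7 for SH replicate 2 and 12.1 to 13.3 for EE replicate 3, which overlap. Its fall was smaller than that of most genes lower in EE, at rank 235 of 338 from the largest, and their median was -0.23 on the log2 scale.

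These calls were common in the table. At an unadjusted p under 0.01, 59.8% of the 584 genes were called in edgeR's fit, 19.2% as higher in EE like Dcx and 40.6% as lower like Nde1. The groups did not overlap in 37.2% of the genes in the higher direction and in 53.8% in the lower direction. A call or a lack of overlap therefore does not set Dcx or Nde1 apart from the rest of this table.

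Because both genes are counted in the same library, the ratio of their counts does not depend on how libraries are scaled. In SH replicates 1, 2 and 3 there were 0.595, 0.559 and 0.553 reads of Dcx for each read of Nde1. In EE replicates 1, 2 and 3 there were 0.793, 0.765 and 0.716. Every EE library had a higher ratio than every SH library, and the lowest EE value and the highest SH value differed by 0.27 on the log2 scale, more than the range within either group. The ratio averaged 0.569 ± 0.023 (SD, n = 3) over the SH libraries and 0.758 ± 0.039 (SD, n = 3) over the EE libraries, a 1.33-fold difference of 0.41 on the log2 scale. The exact binomial 95% intervals of the ratio, again for counting error only, reached up to 0.656 in SH replicate 1 and down to 0.665 in EE replicate 3, so the nearest libraries of the groups did not overlap even with counting error, unlike those of either gene alone. Both genes are in the table because they were called, in opposite directions, and neither overlaps between the groups in FPKM, so the ratio had to separate the groups. The exact two-sided permutation p = 0.1, the smallest that 3 against 3 can give, was fixed by that and is no support. The size and spread of the ratio describe these libraries, on which both genes were selected.

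**Figure D2:**
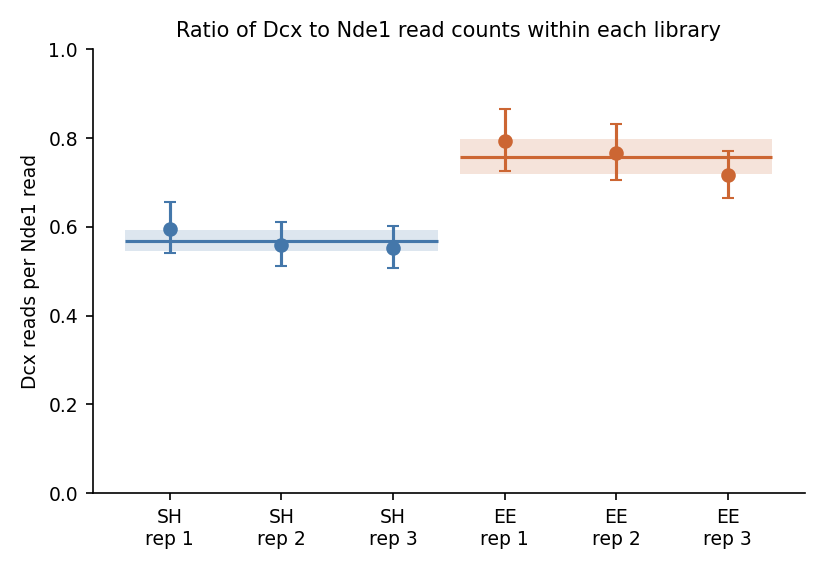
Ratio of Dcx to Nde1 counts in each library. Error bars are exact 95% binomial intervals of counting error, lines and bands are group means with SD, and the 3 EE libraries lie between 0.716 and 0.793, above the 3 SH libraries between 0.553 and 0.595.

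How far each gene moved depended on how the libraries were scaled. The TMM and DESeq2 factors below were estimated from the 584 genes of the table alone, all of them called by the authors. Both methods assume that most genes do not change, so their values show only how far the estimates depend on scaling. With the library totals as sizes, 112 genes of the table were higher and 237 lower at p under 0.01. With edgeR's TMM factors, which moved the median log2 fold change of all genes from -0.18 to -0.098, Dcx had a log2 fold change of 0.29 and Nde1 of -0.12, with unadjusted p of 0.0020 and 0.064, and 229 genes were higher and 53 lower. With DESeq2 the values were 0.33 and -0.089, with unadjusted p of 0.00031 and 0.22, and 233 genes were higher and 29 lower. DESeq2's size factors moved the median of all genes by 0.11, and relative to that shift Dcx was at 0.22 and Nde1 at -0.20. With the sum of the table's counts as library size, Dcx was at 0.16 with an unadjusted p of 0.061 and Nde1 at -0.26 with 0.0044, and 25 genes were higher and 319 lower. That sum includes the mitochondrial genes, and without them, a setting chosen after seeing the data, the values were 0.27 and -0.15, with unadjusted p of 0.0032 and 0.029, and 217 genes were higher and 90 lower. Neither gene changed direction under any of these 5 scalings, and the difference between Dcx and Nde1 was 0.41 on the log2 scale under each of them. With any 1 of the 6 libraries left out, neither gene kept an unadjusted p under 0.01. Their p ranged from 0.011 to 0.046 for Dcx and from 0.011 to 0.034 for Nde1, and the log2 fold changes stayed between 0.18 and 0.24 and between -0.22 and -0.17. Calls over the whole table also fell, from 349 genes with all libraries to between 135 and 324 with 1 left out.

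**Figure D3:**
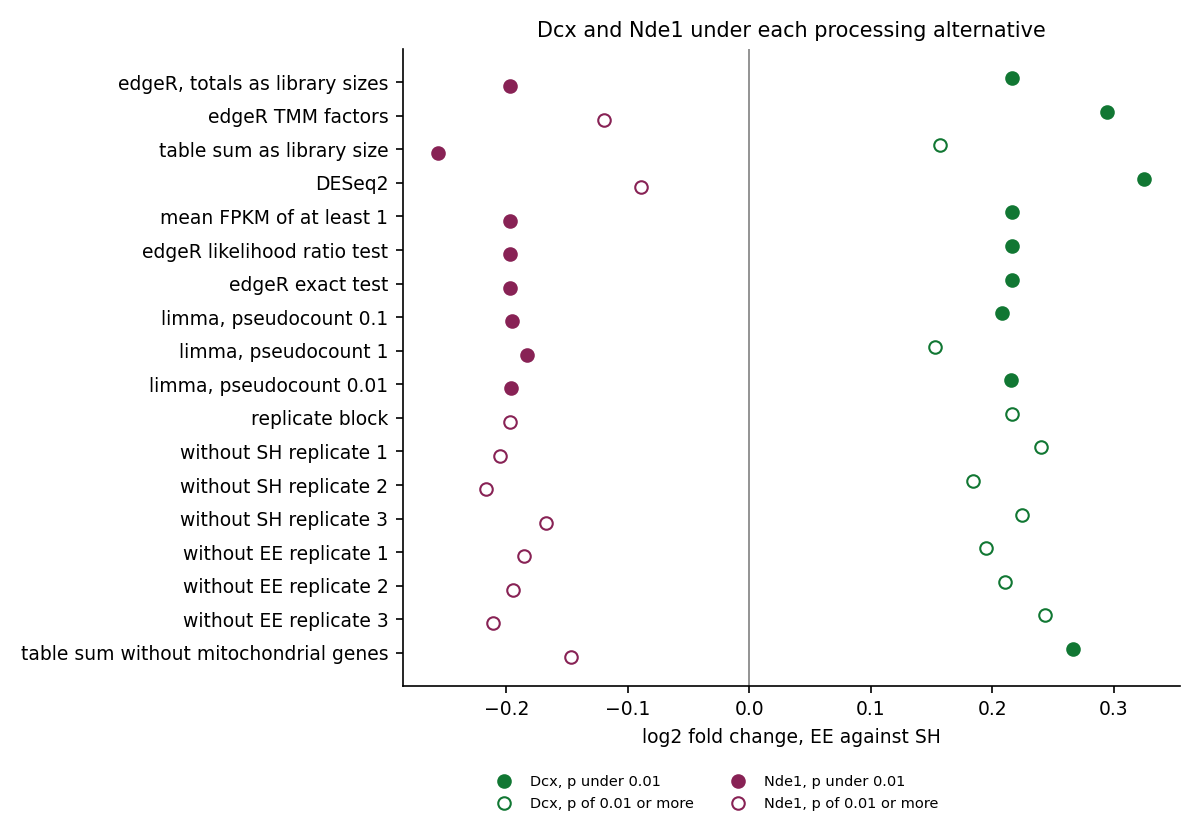
Log2 fold change of EE against SH for Dcx and Nde1 under each scaling, test and left-out library. Filled points have an unadjusted p under 0.01, and the Dcx values stay above 0 and the Nde1 values below 0 throughout.

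To set the pair in its pathway, a list of 110 genes for tubulins, microtubule-associated proteins, kinesins and the dynein machinery was looked up, and 13 of them are in the table. Only Dcx and Hook1 had a higher mean in EE, and the other 11 had a lower one, 84.6% against 57.9% of all genes of the table. At an unadjusted p under 0.01, 1 of the 13 was called higher (Dcx) and 7 were called lower, beside 19.2% and 40.6% of all genes of the table. Their median log2 fold change was -0.18, the same as the -0.18 of all 584 genes, and the groups did not overlap in any of the 13, 2 higher and 11 lower, beside 37.2% and 53.8% of all genes in these directions. The other genes of the list, Ndel1 (a paralog of Nde1) and Pafah1b1 among them, were not analysed here.

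Among the dynein partners, Nudc, a chaperone-like protein that works with Lis1 and dynein, fell like Nde1, from an FPKM of 104.2 ± 3.64 (SD, n = 3) to 92.3 ± 3.10 (SD, n = 3), a log2 fold change of -0.17 (adjusted p = 0.016, edgeR). Dynll2, a dynein light chain, was at -0.15, and Pcnt, the centrosome protein pericentrin, was at -0.20, both with an unadjusted p above 0.01. Hook1, an adaptor that links dynein to cargo, went in the direction of Dcx at 0.17 and also missed that threshold. Among proteins that bind microtubules as Dcx does, Map7d1 (-0.18), Clip2 (-0.18), Mtcl1 (-0.21) and Gas2l1 (-0.22) fell. Clip2 follows the growing ends of microtubules, and Mtcl1 and Gas2l1 crosslink microtubules to each other or to actin. Dpysl2, which binds tubulin dimers in growing axons, fell by 0.23 on the log2 scale, from 44.7 ± 4.71 (SD, n = 3) to 38.2 ± 0.11 (SD, n = 3) FPKM. Mapt, the axonal protein tau, was at -0.14 and Stmn1, a protein that sequesters tubulin, at -0.20, neither under the threshold. Among the listed genes, Dcx was the only one called higher with the totals as library sizes. With TMM, DESeq2 or the sum without mitochondrial genes, 2 listed genes were called higher and 0 lower. Microtubule genes of the table that lie outside the list were not counted. With the table sum 0 were called higher and 9 lower, and without any 1 library 0 were called higher and 0 to 4 lower.

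**Figure D4:**
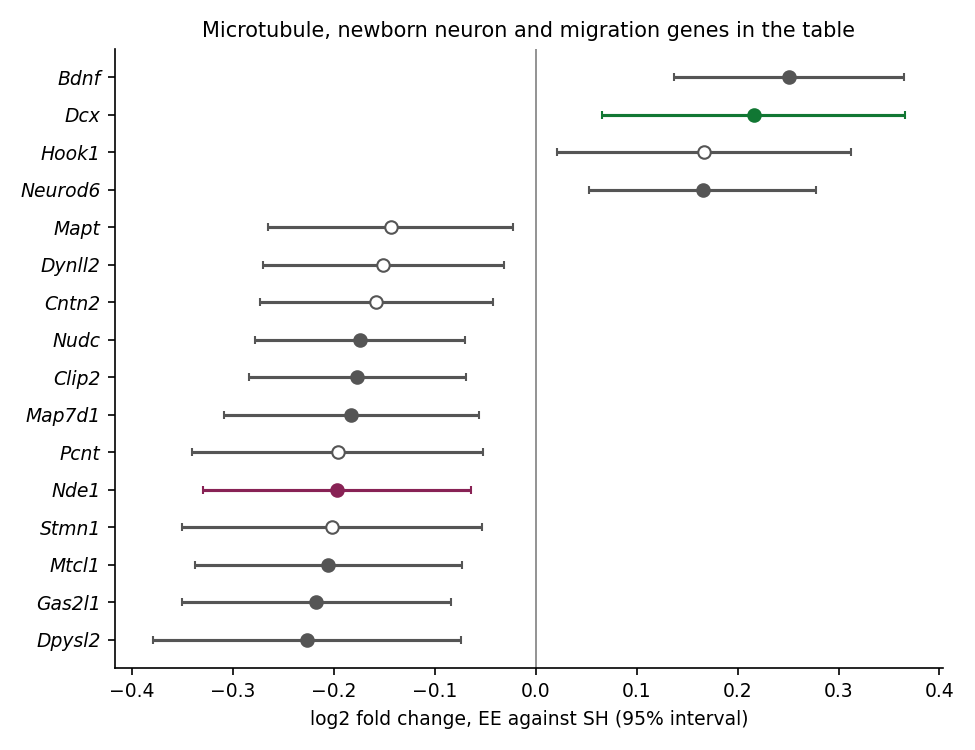
Log2 fold change of EE against SH for the genes of the 3 lists that are in the table, with 95% intervals from edgeR and filled points for an unadjusted p under 0.01. Dcx, Hook1, Neurod6 and Bdnf lie above 0 and the others below it.

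A list of 44 genes was drawn up for neural progenitors and newborn neurons, and 4 are in the table, namely Dcx, Nde1, Stmn1 and Neurod6. The SH mean was 343.8 FPKM for Stmn1 and 138.1 for Neurod6, against 2.21 for Dcx. Stmn1 and Neurod6 are therefore not read here as markers of newborn neurons alone. Neurod6, a transcription factor of excitatory neurons, was also higher in EE. Its FPKM went from 138.1 ± 5.46 (SD, n = 3) to 154.9 ± 3.56 (SD, n = 3), a log2 fold change of 0.17 (adjusted p = 0.016, edgeR). Of the 4, 2 were called higher and 1 lower, beside 19.2% and 40.6% of the whole table, and their median log2 fold change was -0.016. These counts were 2 and 0 with TMM, DESeq2 or the sum without mitochondrial genes, 0 and 2 with the table sum, and 0 to 1 in each direction without any 1 library. The other genes of this list, for newborn neurons and dividing cells, were not analysed here. Of 41 genes for signals that guide migrating neurons, 2 are in the table. Bdnf, a neurotrophin, rose from 7.96 ± 0.26 to 9.48 ± 0.11 FPKM (SD, n = 3 each), a log2 fold change of 0.25 (adjusted p = 0.014, edgeR). Cntn2, an adhesion protein of axons and migrating neurons, was at -0.16 with an unadjusted p of 0.013.

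Markers of other cells moved in both directions beside Dcx and Nde1, as far as they are in the table, and none of those had a count of 0. Over all genes, the groups did not overlap in 37.2% in the higher direction and in 53.8% in the lower direction. The values below use the totals as library sizes. TMM factors raised the log2 fold changes by a median of 0.078, and DESeq2's by 0.11, over all genes of the table. Of 9 astrocyte markers, Aldh1l1 (-0.21) and Gja1 (-0.15) are in it and both fell, with a summed FPKM of 101.4 to 104.0 in SH and 91.2 to 92.4 in EE. Of 7 microglia markers, P2ry12 is in it and rose by 0.24 on the log2 scale, with a range of 18.6 to 21.7 FPKM in SH and of 23.5 to 24.8 FPKM in EE. Of 9 endothelial and mural markers, Cldn5 fell by 0.44 and Cd34 was at -0.25 with overlapping groups, and their sum was 16.1 to 18.8 FPKM in SH and 13.3 to 14.9 in EE. The blood gene Hba-a1 (0.36), 1 of 5, and the dentate granule cell gene C1ql2 (-0.29), 1 of 10 markers of mature neurons, overlapped between groups, at 57.6 to 78.1 against 75.4 to 95.1 FPKM and 22.1 to 28.4 against 18.6 to 24.7 FPKM. Of the markers of oligodendrocytes, their precursors and the choroid plexus, 0 are in the table. The part of these cells in the changes of Dcx and Nde1 was not tested.

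Over the 6 libraries, the genes whose profile came closest to that of Dcx were Ube2g1, Esco1, Mlx, Gucy1a2 and Rbm7, out of 544 other genes whose FPKM averaged 1 or more. Likeness was the root mean square difference of log2(FPKM + 0.1) after centring each gene on its mean. It was 0.011 for Ube2g1, an enzyme of ubiquitin conjugation, with a Pearson r of 0.998, and between 0.020 and 0.025 for the other 4, with r of 0.975 to 0.985. For Nde1 the closest were Cc2d1a, Slc44a5, Sncb, Zrsr1 and Mbd3, at 0.021 to 0.028 with r of 0.965 to 0.982. Sncb, which encodes beta-synuclein, a protein of presynaptic terminals, had a log2 fold change of -0.19. The log2 fold changes were 0.19 to 0.21 in the 5 genes nearest to Dcx and -0.20 to -0.18 in the 5 nearest to Nde1. The likeness includes the step between the groups, and all points share the same 6 libraries.

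Dcx and Nde1 also differ in base composition. The joined exons of Dcx have a GC content of 40.6% and those of Nde1 of 50.2%. In the table, the median was 44.1% over 237 genes higher in EE and 56.8% over 333 genes lower in EE, with mitochondrial genes and genes that had no RefSeq match left out. Within 2 percentage points of Dcx there were 79 genes, of which 73 (92.4%) were higher in EE, and the median of their log2 fold changes was 0.19. Within 2 points of Nde1 there were 73 genes, of which 30 were higher and 43 lower. Dcx thus had the direction of nearly all table genes of its GC content, while genes with the GC content of Nde1 went both ways. The part of GC content in these changes was not tested.

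**Figure D5:**
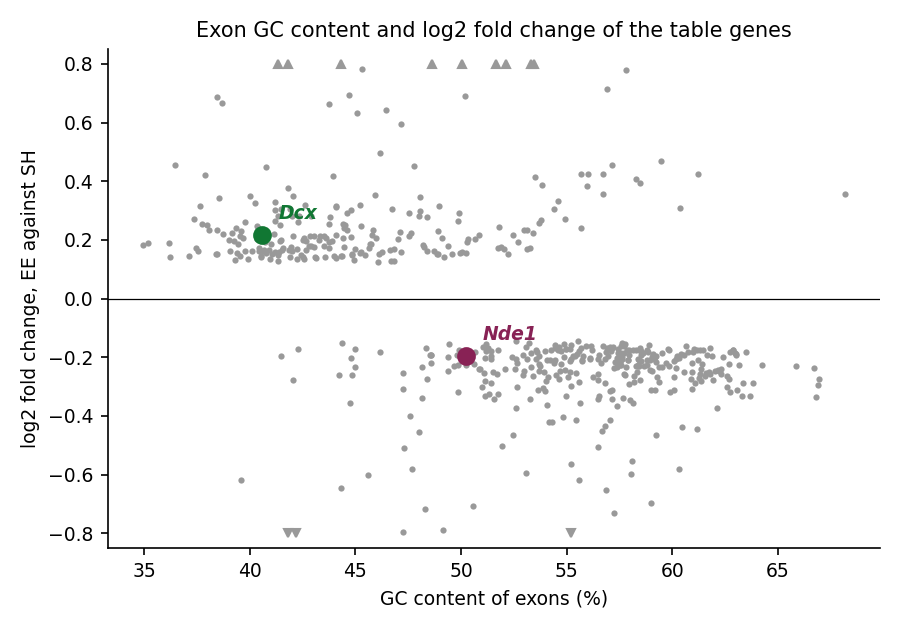
Log2 fold change of EE against SH and GC content of the joined exons, 1 point per gene of the table, with Dcx and Nde1 marked. Triangles are 12 genes beyond 0.8 on the log2 scale, and Dcx (40.6% GC) lies in the range where most genes are above 0.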

How the data were processed

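Hippocampal RNA-seq of 3 SH and 3 EE samples was analysed, grouped by their labels. The authors mapped reads to mm10 with Hisat2, counted them per gene with FeatureCounts 1.5.0-p3 and deposited raw counts for 584 genes. The authors deposited FPKM beside them, calculated from count, gene length and library reads. The deposited table also holds the authors' own edgeR p-value and a log2 fold change, which were not used except to check that all 584 p-values were under 0.01.

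Library totals came from the ratio of count to FPKM with RefSeq exon lengths, where 205 genes gave the same total within 0.001%. RefSeq matched 561 genes by symbol and 14 by an older symbol, and 9 had no match. Totals were 31969156 to 53943195 reads. Counts were tested with edgeR 4.0.16 (quasi-likelihood, R 4.3.3) with these totals as library sizes, no further factor and no filter on low counts. Calls were made at an unadjusted p under 0.01, and Benjamini-Hochberg adjustment ran over the 584 genes, all called by the authors beforehand. The ratio was tested with an exact permutation test, two-sided. The edgeR, limma and DESeq2 fits were also run on simulated counts with known changes, and the outcome is not given here.

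Alternatives were TMM factors, sums of table counts, DESeq2 1.42.0, limma 3.58.1 on log2(FPKM + 0.1, 1 or 0.01), edgeR's likelihood ratio and exact tests, a mean FPKM of at least 1, a p of 0.001, the replicate number as a block and each library left out. The genes given with values are Dcx, Nde1, and all members of the 3 lists and of the cell type marker lists that are in the table. The 5 nearest profiles to Dcx and to Nde1 are named too. The members and lists were chosen with earlier results of these data known. No gene beyond the table was analysed here.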

Additional observations from a re-analysis of the deposited data

How the results depend on the processing

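Dcx stayed higher and Nde1 lower in EE under every alternative run. The call of Dcx at an unadjusted p under 0.01 was lost at a log2 fold change of 0.16 with the sum of table counts, 0.15 with limma at a pseudocount of 1, and 0.22 at a p threshold of 0.001. Without any 1 library it was lost too, at 0.18 to 0.24. The call of Nde1 was lost at -0.12 with TMM and -0.089 with DESeq2, whose factors rest on the called genes of the table alone. It was also lost at -0.15 with the sum of counts without mitochondrial genes (chosen after seeing the data) and -0.20 at a p threshold of 0.001. Without any 1 library the call of Nde1 was lost at -0.22 to -0.17. The ratio differed by 0.34 to 0.45 on the log2 scale over all its alternatives, and by 0.38 to 0.45 without 1 library, where the smallest possible exact p is 0.2.

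With the replicate number as a block, Dcx was at 0.22 and Nde1 at -0.20, with unadjusted p of 0.018 and 0.016, and 78 genes were higher and 136 lower, in place of 112 and 237. Same-numbered libraries of the groups had correlations of 0.15, -0.04 and -0.10 of their deviations, and SH libraries 2 and 3 were not closest to their own number, so the numbers were not taken to pair the samples.

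Counts of called list genes moved as follows. Genes of the microtubule list called higher, 1 in the report, were 2 with TMM, DESeq2 and the sum without mitochondrial genes. They were 0 with the table sum, limma at a pseudocount of 1, the block and without any 1 library. Those called lower, 7 in the report, were 0 with TMM, DESeq2 and the sum without mitochondrial genes, 3 with limma at 0.1 and 0.01, 4 at 1, 2 with the block, 9 with the table sum and edgeR's likelihood ratio and exact tests, and 0 to 4 without 1 library. Genes of the newborn neuron list called higher, 2 in the report, were 0 with the table sum and the block, 1 with limma and 0 to 1 without 1 library. Those called lower, 1 in the report, were 0 with TMM, DESeq2 and the sum without mitochondrial genes, 2 with the table sum and edgeR's likelihood ratio and exact tests, and 0 to 1 without 1 library. Migration genes called higher, 1 in the report, were 0 with the table sum, and those called lower, 0 in the report, were 1 with the table sum and edgeR's likelihood ratio and exact tests. The causes were not tested. Over all genes, calls ranged from 25 to 233 higher and from 29 to 319 lower across scalings. Dcx was counted with 674 to 1231 reads a library, and its replicate spread was near counting error.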
